A study of Homo sapiens with 12 samples.

Results

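The proximal tubule genes described here are 44 listed genes of the kidney proximal tubule, which encode endocytic receptors, brush border and basolateral transporters, membrane peptidases, enzymes of gluconeogenesis and vitamin D metabolism, nuclear factors and 3 markers of tubule injury or progenitor cells. They are a list of names drawn up with earlier results of these data known, and all 44 symbols matched 1 gene ID each among the 58288 gene IDs of the count table. RNA was sequenced from HK2, an immortalised human proximal tubule line, in 4 groups of 3 libraries. Short-term nontarget cells carried a control short hairpin RNA (shRNA, which lowers the mRNA it matches) and short-term FLCN knockdown cells an shRNA against FLCN, the tumour suppressor gene of Birt-Hogg-Dubé syndrome, both harvested before passage 30. The corresponding long-term cells carried the same constructs and were grown for more than 120 passages by their labels, where the study's text gives a lower limit. All groups share the immortalised line, polyA-selected RNA and culture in DMEM with serum. Clones were selected, and which clone a library came from is not stated, so that the effects of an shRNA and of its clone cannot be told apart, and the libraries are labelled biological replicates without a statement on separate cultures, so that p-values measure only the spread between these libraries.

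The proximal tubule reabsorbs most of the water, salt, glucose, phosphate, amino acids and small proteins that the glomerulus filters. Its apical brush border carries sodium-coupled carriers, the endocytic receptors megalin and cubilin, and peptidases that cleave filtered peptides, while organic anion and cation transporters and ATP-driven efflux pumps move drugs and metabolites from blood to urine. Many of these genes are driven by the hepatocyte nuclear factors HNF1 and HNF4, and tubule cells in culture are known to lose part of this program. FLCN acts at the lysosome on the phosphorylation of the MiT/TFE transcription factors, which bind E-box sequences.

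Promoter sequences of 4 genes, each with a match to a different motif, are shown first. They are taken from RefSeq (GRCh38.p14), in the direction of transcription, from 250 bases before to 50 bases after the annotated start, with the match in capitals. The E-box of DPP4 lies in chr2:162074166-162074465 (minus strand), the AP-1 motif of SLC17A3 in chr6:25874194-25874493 (minus strand), the HNF4 motif of PDZK1 in chr1:145707351-145707650 (minus strand) and a pair of core HNF1 motifs of HAVCR1 in chr5:157059067-157059366 (minus strand).
DPP4: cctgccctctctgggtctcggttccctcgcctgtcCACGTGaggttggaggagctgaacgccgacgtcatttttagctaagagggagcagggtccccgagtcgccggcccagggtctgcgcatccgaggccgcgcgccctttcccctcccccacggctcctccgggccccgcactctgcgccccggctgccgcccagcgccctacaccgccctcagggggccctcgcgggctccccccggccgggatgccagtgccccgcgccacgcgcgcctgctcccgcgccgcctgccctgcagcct
SLC17A3: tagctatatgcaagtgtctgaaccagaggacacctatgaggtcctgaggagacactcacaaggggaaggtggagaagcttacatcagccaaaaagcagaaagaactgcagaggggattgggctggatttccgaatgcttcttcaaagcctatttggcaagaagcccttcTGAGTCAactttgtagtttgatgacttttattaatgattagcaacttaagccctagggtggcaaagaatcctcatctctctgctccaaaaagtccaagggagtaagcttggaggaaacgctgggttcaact
PDZK1: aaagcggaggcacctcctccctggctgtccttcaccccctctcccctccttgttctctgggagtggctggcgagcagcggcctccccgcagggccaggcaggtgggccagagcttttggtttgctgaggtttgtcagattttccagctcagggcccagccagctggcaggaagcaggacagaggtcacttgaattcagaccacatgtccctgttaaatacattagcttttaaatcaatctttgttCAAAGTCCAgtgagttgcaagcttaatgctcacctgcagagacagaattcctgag
HAVCR1: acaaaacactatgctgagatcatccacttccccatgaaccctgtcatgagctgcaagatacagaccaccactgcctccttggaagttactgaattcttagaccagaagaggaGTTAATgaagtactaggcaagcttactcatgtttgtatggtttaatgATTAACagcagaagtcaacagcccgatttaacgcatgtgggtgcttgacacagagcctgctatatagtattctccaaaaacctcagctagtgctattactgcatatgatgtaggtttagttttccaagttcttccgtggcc

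The 4 windows differ in composition: that of DPP4 had 75.0% G or C and 34 CpG dinucleotides, that of PDZK1 54.3% and 4, that of SLC17A3 45.7% and 2, and that of HAVCR1 43.0% and 3. Of the 44 genes, 34 had a promoter in the table of 27305. On both strands, the HNF4 motif CAAAGTCCA was found in 1 of the 34, PDZK1, and in 0.359% of all promoters. The core HNF1 motif GTTAAT was found in 7 of 34 (DAB2, HAVCR1, MIOX, SLC22A6, SLC34A1, SLC5A1 and VCAM1) and in 6.89% of all. The E-box CACGTG was found in 3 of 34 (AMN, DPP4 and SLC22A4) against 7.43% of all, and the AP-1 motif TGANTCA in 3 of 34 (MIOX, SLC17A3 and SLC5A2) against 7.76% of all. ABCB1, MME, GGT1 and ENPEP, which also changed in these data, had a promoter in the table without a match to any of these motifs. HAVCR1, whose promoter is shown, changed in no comparison. The matches are descriptions of the letters and not binding sites.

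The libraries held 5825779 to 8991051 counts each. FLCN itself stood at 12.7, 16.7 and 16.5 CPM (counts per 1000000) in the short-term nontarget libraries and 5.95, 6.58 and 5.66 CPM after short-term knockdown, and at 9.92, 11.9 and 12.2 CPM in the long-term nontarget libraries and 6.7, 6.31 and 7.97 CPM after long-term knockdown, with no overlap between knockdown and nontarget at either time. The log2 fold change was −1.33 ± 0.18 (SE), adjusted p = 1.12e-04 short-term and −0.70 ± 0.18 (SE), adjusted p = 0.00611 long-term, by the quasi-likelihood test of edgeR with Benjamini-Hochberg adjustment over the 13959 genes tested. Of the markers of other kidney cells, UMOD, SLC12A1 and KCNJ1 of the thick ascending limb, NPHS1 and WT1 of podocytes, FOXI1 of intercalated cells, KDR of endothelium and PTPRC and CD3E of leukocytes had no count. The summed level of 5 general epithelial genes, led by KRT8, was 2191 to 3743 CPM and that of the 44 proximal tubule genes 678 to 885 CPM. Over the 12 libraries the summed level was 0 to 5.85 CPM for 5 thick ascending limb genes, 0 to 6.47 for 4 distal convoluted tubule genes, 2.5 to 7.89 for 6 principal cell genes, 0 to 0.587 for 5 intercalated cell genes, 0.116 to 2.46 for 5 endothelial genes and 0.116 to 1.32 for 4 leukocyte genes. Podocyte and fibroblast genes were not near 0: the sum was 66.2 to 127 CPM for 5 podocyte genes, from SYNPO and PODXL, both also made by other cells, and 24.6 to 56.8 CPM for 5 fibroblast genes, all of which had counts.

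Part of the proximal tubule program was not detected in HK2 cells. Of the 44 genes, 36 had at least 1 count in the 12 libraries and 8 had none: LRP2 (megalin), SLC5A1 (the glucose carrier SGLT1), CA4 (membrane carbonic anhydrase), the organic anion transporters SLC22A6 and SLC22A8, the dicarboxylate carrier SLC13A3, the cation exporter SLC47A1 and the nuclear factor HNF4A. A count of 0 over the 12 libraries allows up to 0.0358 CPM, by a floor of 3 counts that covers counting error only. ANPEP had 3 counts in all, PCK1 1 and VCAM1 2, and 9 further genes had too few for a test. Of these 9, CUBN (cubilin, the partner of megalin) had 29 counts, AQP1 (the water channel) 7, SLC34A1 (the main phosphate carrier) 11, SLC9A3 (the sodium-proton exchanger) 67, SLC17A1 60, SLC22A2 (an organic cation carrier) 35, FBP1 8, CYP27B1 38 and PROM1 8. The remaining 24 genes were tested, 25 had a count in every library, and 13 of the tested genes had a mean of at least 10 CPM.

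**Figure D1:**
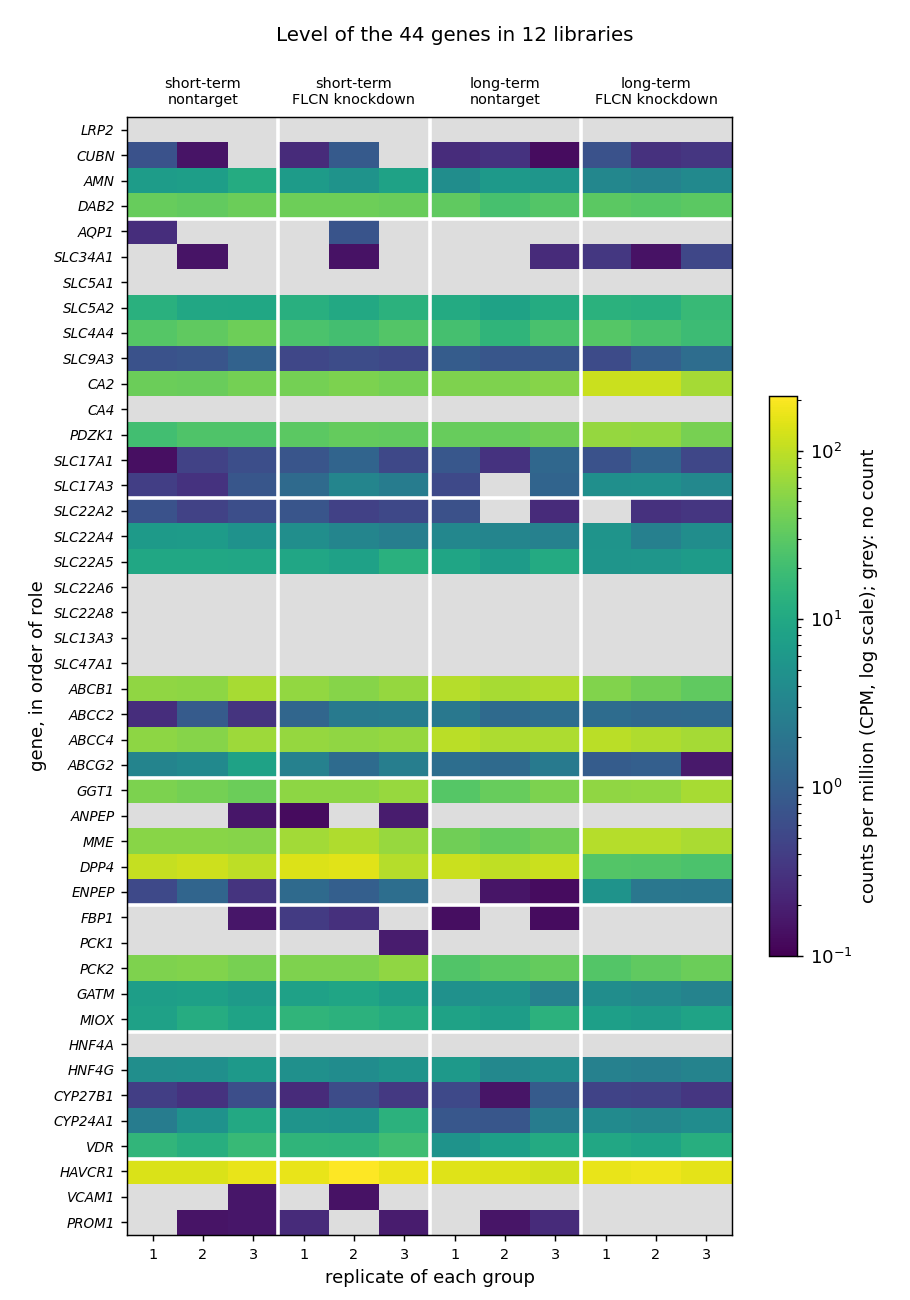
Heat map of the level (CPM, logarithmic colour scale, grey for no count) of the 44 genes (vertical axis, in order of role) in the 12 libraries (horizontal axis, replicates 1 to 3 of each group). The 8 rows that are grey throughout are the genes with no count, and HAVCR1 is the brightest row, at 123 to 208 CPM.

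An injury marker led the detected genes. Per length of exon, which allows levels of different genes to be compared, HAVCR1 (kidney injury molecule KIM-1, which rises in damaged tubules) averaged 72.6 CPM per kilobase over the 12 libraries, above 95.7% of all genes tested, and ranked first in each of the 4 groups. CA2, the cytosolic carbonic anhydrase, followed at 27.4 CPM per kilobase, then DPP4 at 18.4, the scaffold PDZK1 at 15.1, GGT1 at 11.5, ABCB1 at 10.7, PCK2 at 9.68, ABCC4 at 8.46 and MME at 6.54. The lowest of the tested genes were ABCC2 at 0.179 and ENPEP at 0.166 CPM per kilobase. The median of the 24 tested genes was 2.63 CPM per kilobase against 4.79 for all genes tested, and 10 of the 24 lay above that median.

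Several neighbours in this order did not differ beyond their spread. In the short-term nontarget libraries DPP4 stood at 21.4 ± 2.09 CPM per kilobase (SD, n = 3) and CA2 at 18.2 ± 1.55, and PCK2 at 11.2 ± 0.743, ABCB1 at 11 ± 1.81, PDZK1 at 9.7 ± 1.11 and GGT1 at 9.47 ± 1.01, each overlapping the next. DPP4 held rank 2, 2 and 3 in the short-term nontarget, short-term knockdown and long-term nontarget groups and rank 9 in long-term knockdown, where it stood at 5.19 ± 0.282 CPM per kilobase. SLC17A3 moved from rank 23 in long-term nontarget to rank 16 in long-term knockdown, and PDZK1 from rank 6 in short-term nontarget to rank 3 in long-term knockdown.

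**Figure D2:**
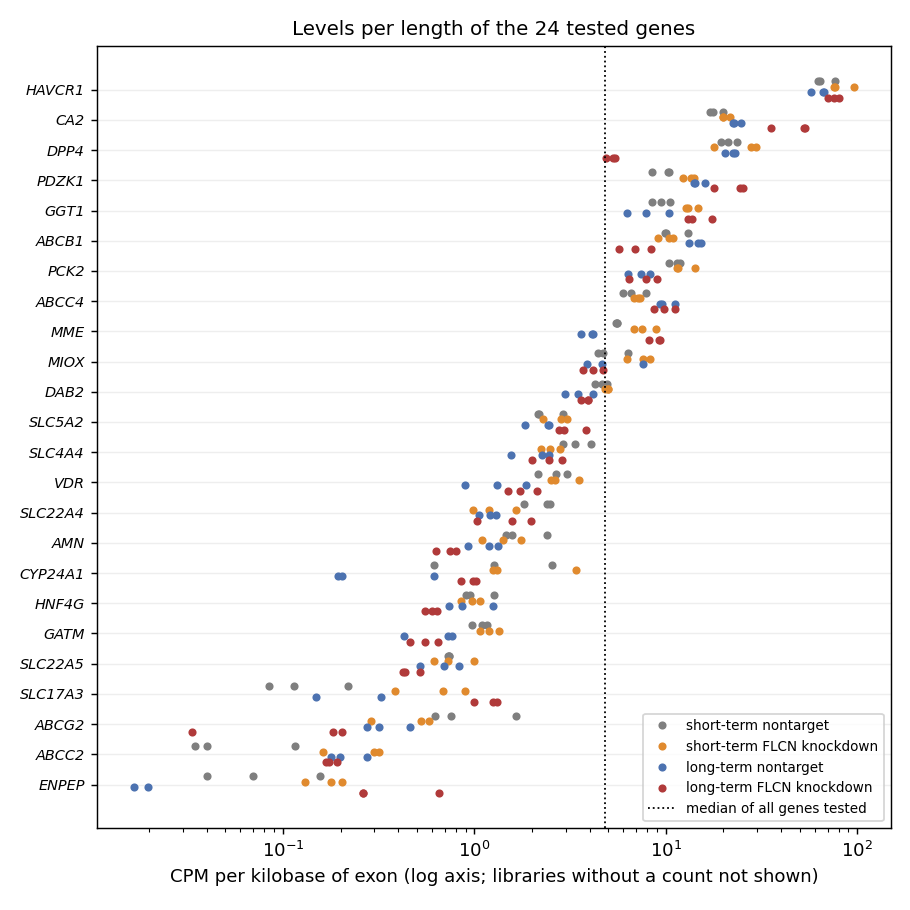
Level per length (CPM per kilobase of exon, logarithmic horizontal axis) of the 24 tested genes (vertical axis, ordered by their mean) in each library, with colours for the 4 groups and a dotted line at the median of all genes tested, 4.79. HAVCR1 lies highest in every group, and the long-term knockdown libraries of DPP4 lie apart from the other 9.

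Effects of knockdown and of long culture were then compared gene by gene. After short-term knockdown, 4 of the 24 tested genes passed the test (adjusted p below 0.05), all higher, where the background over all genes tested was 10.3% in either direction, 5.62% higher and 4.71% lower. After long-term knockdown, 8 of 24 passed, 6 higher and 2 lower, against 29.5% of all genes, 13.7% higher and 15.8% lower. In nontarget cells, long culture changed 10 of 24, 3 higher and 7 lower, against 7.55% of all genes, 3.17% higher and 4.38% lower. In knockdown cells, long culture changed 14 of 24, 4 higher and 10 lower, against 26.6% of all genes, 11.5% higher and 15.2% lower. The knockdown effect differed between long-term and short-term cells in 6 of 24, 3 in each direction, against 13.4% of all genes, 4.98% higher and 8.43% lower. Among the called genes, SLC17A3 and ENPEP passed the filter on low counts only through the long-term knockdown libraries, where they are high, and ABCC2 only through the short-term knockdown and long-term nontarget libraries, where it is high, so that these 3 had to differ between groups to be tested.

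Most of the changes in long culture were falls. The counts moved with single libraries. Without knockdown the 10 genes became 3 without short-term nontarget replicate 1 or long-term nontarget replicate 2, 4 without short-term nontarget replicate 2, 5 without long-term nontarget replicate 1 and 6 without either replicate 3, where 4.1% to 6.39% of all genes were called. With knockdown the 14 became 9 without short-term knockdown replicate 3 and 8 without long-term knockdown replicate 1, against 23.2% and 19.9% of all genes. The 4 genes of short-term knockdown became 0 without short-term knockdown replicate 2, 1 without short-term nontarget replicate 1 and 2 without short-term nontarget replicate 2 or 3, against 6.17% to 7.69%. After long-term knockdown 8 to 10 genes were called without 1 library, against 23.2% to 29.5% of all genes. For the 24 genes the median log2 fold change was 0.17 after short-term and 0.17 after long-term knockdown, −0.16 in long culture without and −0.43 with knockdown, and −0.01 for the difference between times, while that of all genes lay between −6.86e-05 and 0.0126. With fold limits added (2.5-fold for knockdown and 2-fold for long culture, after the study, and 2.5-fold for the difference between times, set here), the counts were 2 (background 1.79%), 3 (6.61%), 3 (2.87%), 5 (8.78%) and 3 (5.44%) in the same order of comparisons. The 2 of short-term knockdown were SLC17A3 and ABCC2, tested only through groups where they are high. Such genes also entered the counts of long-term knockdown (SLC17A3 and ENPEP) and of the difference between times (ABCC2 and ENPEP). They entered those of long culture without (ABCC2) and with knockdown (ENPEP) too. None of these counts is free of that selection. In all, 21 of the 24, these 3 among them, changed in at least 1 comparison, against 43% of all genes, and SLC5A2, HNF4G and HAVCR1 in none. The comparisons share libraries: both short-term groups and both long-term groups enter a knockdown and a culture comparison each. The summed level of 5 fibroblast genes, led by COL1A1, moved with long culture too, from 49.2 to 56.8 CPM in short-term to 24.6 to 36.6 CPM in long-term libraries. Other marker sums moved as well. In nontarget cells the podocyte sum was 117 to 127 CPM short-term and 87.03 to 116 CPM long-term, the distal convoluted tubule sum 0.957 to 1.37 and 2.95 to 6.47 CPM, and the general epithelial sum 2505 to 2763 and 2980 to 3358 CPM. In knockdown cells the podocyte sum was 84.8 to 119 CPM short-term and 66.2 to 88.7 CPM long-term, with overlap, and the low sums of thick ascending limb, distal convoluted tubule, principal cell, endothelial and leukocyte genes were lower in long-term libraries without overlap. In short-term cells the general epithelial sum was 2505 to 2763 CPM without and 2875 to 3743 CPM with knockdown. The fibroblast sum was higher with knockdown too, at 49.2 to 50.4 and 52.3 to 56.8 CPM, as was the leukocyte sum, at 0.304 to 0.943 and 1.06 to 1.32 CPM. The distal convoluted tubule sum was lower with knockdown, at 0.957 to 1.37 and 0.633 to 0.885 CPM. In long-term cells 4 sums were lower with knockdown, without overlap: thick ascending limb at 1.61 to 3.1 CPM without and 0 to 0.587 CPM with it, distal convoluted tubule at 2.95 to 6.47 and 0 to 0.231 CPM, principal cell at 5.63 to 7.89 and 2.5 to 4.74 CPM and endothelium at 1.08 to 2.46 and 0.116 to 0.339 CPM. The intercalated cell sum was higher with knockdown in long-term cells, at 0 to 0.134 CPM without and 0.17 to 0.587 CPM with it. The part of all these genes in the changes of the proximal tubule genes was not tested. In RNA from whole cultures, fewer cells that express a gene and less RNA per cell cannot be told apart.

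**Figure D3:**
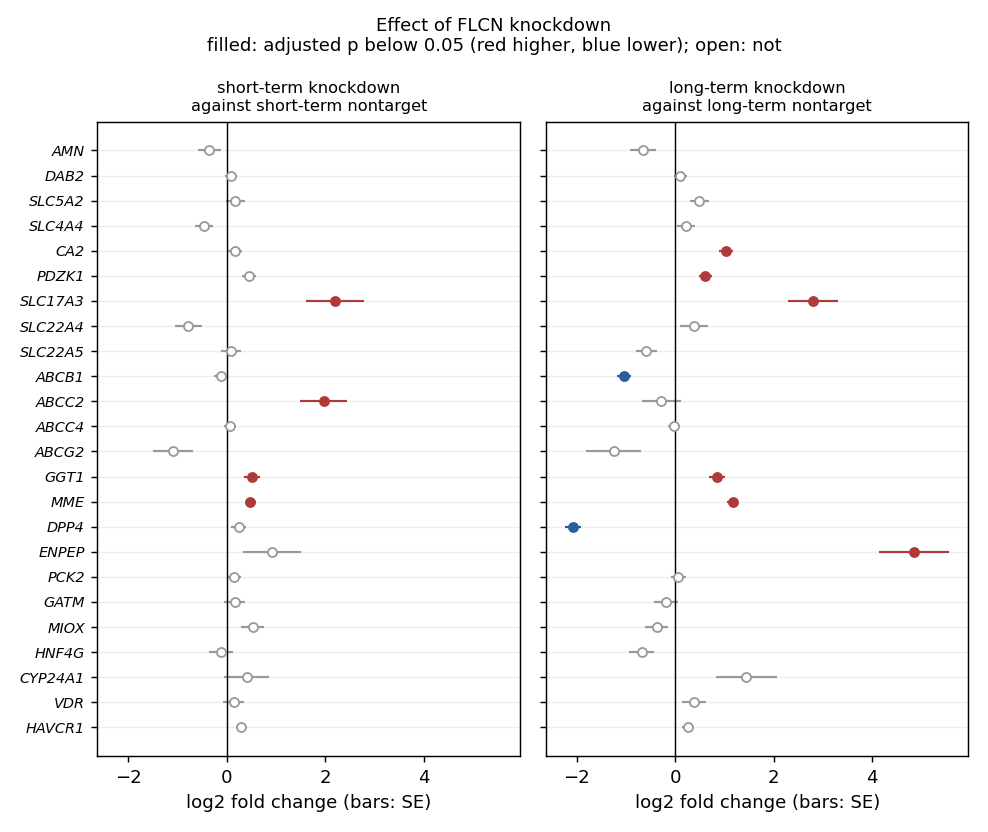
Log2 fold change of FLCN knockdown against nontarget (horizontal axis, bars SE) for the 24 tested genes (vertical axis, in order of role) in short-term cells (left) and long-term cells (right), filled where the adjusted p was below 0.05. SLC17A3, GGT1 and MME are filled on the right of 0 in both panels, while DPP4 and ABCB1 are filled on the left of 0 in long-term cells.

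Of the endocytic genes, the receptors were at or near 0 and the adaptors were expressed. LRP2 had no count in any library, and CUBN had counts in 10 of the 12, at 0.683, 0.152 and 0 CPM in short-term nontarget, 0.253, 0.877 and 0 CPM in short-term knockdown, 0.268, 0.31 and 0.129 CPM in long-term nontarget and 0.693, 0.293 and 0.339 CPM in long-term knockdown libraries. AMN (amnionless), which anchors cubilin in the membrane, is on chromosome 14 at chr14:102922656-102933596 (plus strand). It stood at 6.83, 7.29 and 11.2 CPM in short-term nontarget, 6.58, 5.12 and 8.14 CPM in short-term knockdown, 4.29, 6.19 and 5.56 CPM in long-term nontarget and 3.47, 2.93 and 3.73 CPM in long-term knockdown libraries. The long-term knockdown libraries were the lowest and overlapped no other group. Long culture lowered AMN in knockdown cells 1.94-fold (log2 fold change −0.96 ± 0.26 (SE), adjusted p = 0.0115), a call kept without any single library of the 2 groups. Without knockdown the change was −0.65 ± 0.24 (SE), adjusted p = 0.117.

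Exons of AMN overlap those of CDC42BPB on the other strand, and the strand setting of the counting is not stated. CDC42BPB, with 11724 counts in all, changed by −0.69 in the same comparison (adjusted p = 1.54e-04), and of the 40 tested genes nearest to AMN 24 were lower and 1 higher, with a median of −0.61. The part of either in the fall of AMN was not tested. DAB2, the adaptor that links megalin to clathrin, stood at 35.9, 33.1 and 38 CPM in short-term nontarget, 38.5, 38.6 and 37 CPM in short-term knockdown, 32.2, 22.9 and 26.8 CPM in long-term nontarget and 30.3, 27.7 and 30.2 CPM in long-term knockdown libraries. Each long-term group lay below the short-term group it was compared with. With knockdown the change over long culture passed the test (−0.37 ± 0.13 (SE), adjusted p = 0.0393), but it was lost without any 1 of the 6 libraries (adjusted p 0.0529 to 0.111), and without knockdown it was −0.38 ± 0.13 (SE), adjusted p = 0.0827. Over long culture with knockdown the 40 nearest genes had a median of 0.40, 23 higher and 3 lower.

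Among the brush border transport genes, the water channel AQP1 and the phosphate carrier SLC34A1 were scarce, and CA2 and PDZK1 rose after long-term knockdown. SLC17A3 was higher there too, with the limit that it passed the filter on low counts only through those libraries. AQP1 was found in 2 libraries, at 0.273 CPM in short-term nontarget replicate 1 and 0.731 CPM in short-term knockdown replicate 2, and SLC34A1 in 6 libraries. SLC34A1 stood at 0, 0.152 and 0 CPM in short-term nontarget, 0, 0.146 and 0 CPM in short-term knockdown, 0, 0 and 0.259 CPM in long-term nontarget and 0.347, 0.147 and 0.509 CPM in long-term knockdown libraries. SLC5A2, the glucose carrier SGLT2, stood at 13, 9.72 and 9.58 CPM in short-term nontarget, 12.7, 10.2 and 13.6 CPM in short-term knockdown, 10.9, 8.21 and 11 CPM in long-term nontarget and 13.2, 12.3 and 17.1 CPM in long-term knockdown libraries. It passed no test, the nearest being long-term knockdown (0.49 ± 0.19 (SE), adjusted p = 0.0609), where the groups did not overlap. Its exons overlap those of C16orf58 on the other strand, which had 3573 counts against 985 for SLC5A2, so that its reads cannot be assigned to SLC5A2 with certainty.

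CA2, which hydrates carbon dioxide for bicarbonate reabsorption, stood at 37.6, 36.1 and 42.4 CPM in short-term nontarget and 42.5, 46.2 and 42.3 CPM in short-term knockdown libraries. In long-term cells it stood at 48.2, 47.5 and 52.5 CPM without and 113, 114 and 75.6 CPM with knockdown. All 3 long-term knockdown libraries lay above the other 9, replicate 3 less far than the other 2. Long-term knockdown raised CA2 2.04-fold (1.03 ± 0.14 (SE), adjusted p = 1.85e-05), short-term knockdown gave 0.17 ± 0.14 (SE), adjusted p = 0.518, and the difference between the effects was 0.855 ± 0.20 (SE, adjusted p = 0.00668). These calls held without any single library. Over long culture CA2 rose 2.31-fold in knockdown cells (1.21 ± 0.14 (SE), adjusted p = 4.31e-06), and in nontarget cells the change was 0.35 ± 0.14 (SE), adjusted p = 0.159.

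PDZK1, a scaffold that holds transporters at the brush border, rose after long-term knockdown and over long culture. Its levels were 20.9, 25.4 and 25.9 CPM in short-term nontarget, 30.6, 34.7 and 33.8 CPM in short-term knockdown, 35.4, 35 and 39.6 CPM in long-term nontarget and 63, 60.9 and 44.3 CPM in long-term knockdown libraries. The short-term nontarget libraries were the lowest of the 12 and the long-term knockdown libraries the highest. Long-term knockdown raised it 1.53-fold (0.62 ± 0.14 (SE), adjusted p = 0.00231) and short-term knockdown gave 0.46 ± 0.14 (SE), adjusted p = 0.0539, with a difference between the effects of 0.16 ± 0.20 (adjusted p = 0.672). Long culture raised it with knockdown (0.77 ± 0.14 (SE), adjusted p = 4.66e-04) and without (0.61 ± 0.14 (SE), adjusted p = 0.0128), the latter lost without short-term nontarget replicate 1 (adjusted p = 0.0932) or long-term nontarget replicate 3 (0.0569). The annotation holds a pseudogene named PDZK1P1, and reads shared with it could be split. Pseudogenes named after CUBN, SLC9A3, SLC47A1, MIOX, HNF4G and HAVCR1 are annotated too, with the same limit.

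SLC17A3, a urate and organic anion carrier of the apical membrane, was low in nontarget cells and higher with knockdown at both times. It stood at 0.41, 0.304 and 0.786 CPM in short-term nontarget (10 counts in all) and 1.39, 3.22 and 2.48 CPM in short-term knockdown libraries (47 counts), and at 0.536, 0 and 1.16 CPM in long-term nontarget (13 counts) and 4.51, 4.7 and 3.56 CPM in long-term knockdown libraries (92 counts). At each time the 3 knockdown libraries lay above all 3 nontarget libraries. The gene passed the filter on low counts only through the long-term knockdown libraries, where it is high. It thus had to differ between groups to be tested. The rise was 4.58-fold short-term (2.20 ± 0.59 (SE), adjusted p = 0.0226) and 7.0-fold long-term (2.81 ± 0.50 (SE), adjusted p = 3.83e-04). The long-term call held without any single library, with a log2 fold change of 3.81 without long-term nontarget replicate 3, while the short-term call was lost without short-term nontarget replicate 1 (adjusted p = 0.0978) or 2 (0.101) or short-term knockdown replicate 2 (0.0979). Of the 40 genes nearest to SLC17A3, 3 were higher and 12 lower after long-term knockdown. Its paralog SLC17A1 had 60 counts in all, at 0.137 to 1.29 CPM.

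SLC4A4, the basolateral bicarbonate carrier, fell over long culture of nontarget cells. It stood at 27.9, 32.5 and 39.3 CPM in short-term nontarget, 23.8, 21.5 and 27.1 CPM in short-term knockdown, 21.7, 15 and 23.7 CPM in long-term nontarget and 27.7, 23.6 and 19.2 CPM in long-term knockdown libraries. The short-term nontarget libraries were the highest of the 12. The fall was 1.64-fold (−0.71 ± 0.18 (SE), adjusted p = 0.0205), and the call was lost without short-term nontarget replicate 2 (adjusted p = 0.0601) or 3 (0.112) or long-term nontarget replicate 2 (0.107). In knockdown cells the change was −0.02 ± 0.18 (SE), adjusted p = 0.943, and the difference between the 2 culture effects, which is the difference between the knockdown effects, was 0.69 ± 0.26 (SE), adjusted p = 0.0893.

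Of the organic solute genes, SLC22A6, SLC22A8, SLC13A3 and SLC47A1 had no count. The carnitine and zwitterion carriers SLC22A4 and SLC22A5 were expressed at a low level. SLC22A4 stood at 6.42, 6.68 and 4.87 CPM in short-term nontarget, 4.43, 3.22 and 2.65 CPM in short-term knockdown, 3.48, 3.25 and 2.85 CPM in long-term nontarget and 5.32, 2.79 and 4.24 CPM in long-term knockdown libraries. Long culture of nontarget cells lowered it 1.88-fold (−0.91 ± 0.27 (SE), adjusted p = 0.0473), with no overlap, but the call was lost in 5 of the 6 fits without 1 library, all but that without short-term nontarget replicate 3 (adjusted p 0.0787 to 0.168), and in DESeq2 (0.0941).

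SLC22A5, the high-affinity carnitine carrier, stood at 9.43, 9.42 and 9.27 CPM in short-term nontarget, 9.36, 7.9 and 12.7 CPM in short-term knockdown, 8.84, 6.66 and 10.6 CPM in long-term nontarget and 5.43, 5.58 and 6.61 CPM in long-term knockdown libraries. The long-term knockdown libraries were the lowest of the 12, though close to long-term nontarget replicate 2. It fell over long culture of knockdown cells (−0.76 ± 0.22 (SE), adjusted p = 0.0139), a call lost without short-term knockdown replicate 3 (adjusted p = 0.0718) or long-term knockdown replicate 1 (0.0578), and its change with long-term knockdown was −0.58 ± 0.22 (SE), adjusted p = 0.051.

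The 4 efflux pumps moved in different ways. ABCB1 (P-glycoprotein, MDR1) stood at 58.5, 57.3 and 76 CPM in short-term nontarget, 60.7, 52.8 and 63.5 CPM in short-term knockdown, 89.2, 77.1 and 85.4 CPM in long-term nontarget and 48.8, 40.2 and 32.9 CPM in long-term knockdown libraries. The long-term nontarget libraries were the highest of the 12 and the long-term knockdown libraries the lowest. Long-term knockdown lowered it 2.06-fold (−1.04 ± 0.14 (SE), adjusted p = 2.94e-05), short-term knockdown gave −0.12 ± 0.14 (SE), adjusted p = 0.70, and the effects differed by −0.92 ± 0.20 (SE), adjusted p = 0.00464. Over long culture it fell with knockdown (−0.53 ± 0.15 (SE), adjusted p = 0.0116) and changed by 0.39 ± 0.14 (SE), adjusted p = 0.109 without. The 40 genes nearest to ABCB1 on chromosome 7 had a median of 0.39 after long-term knockdown, 13 higher and 5 lower, and these ABCB1 calls held without any single library.

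ABCC2 (MRP2), the apical pump for conjugated anions, was lowest in short-term nontarget cells. It stood at 0.273, 0.911 and 0.314 CPM in short-term nontarget (10 counts), 1.27, 2.34 and 2.48 CPM in short-term knockdown (40 counts), 2.14, 1.39 and 1.55 CPM in long-term nontarget (37 counts) and 1.5, 1.32 and 1.36 CPM in long-term knockdown libraries (30 counts). Short-term knockdown raised it 3.91-fold (1.97 ± 0.48 (SE), adjusted p = 0.0131), and long culture of nontarget cells 3.37-fold (1.75 ± 0.49 (SE), adjusted p = 0.0353). Both rises are set against the same 3 short-term nontarget libraries. Long-term knockdown gave −0.28 ± 0.40 (SE), adjusted p = 0.649, and the effects differed by −2.25 ± 0.63 (SE), adjusted p = 0.0232.

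These ABCC2 calls rested on few counts, and the gene passed the filter on low counts only through groups where it is high. Without short-term nontarget replicate 2 the log2 fold change was 2.69 for short-term knockdown and 2.47 for long culture, and the difference −2.97. The short-term call was lost without short-term nontarget replicate 1 (adjusted p = 0.0833) or 3 (0.0626) or short-term knockdown replicate 2 (0.054). The culture call was lost in 5 of the 6 fits without 1 library, all but that without short-term nontarget replicate 2 (adjusted p 0.0586 to 0.178), and in DESeq2 (0.0846). The difference between the effects was lost without short-term nontarget replicate 1 (0.0823) or 3 (0.067), short-term knockdown replicate 2 (0.0569) or 3 (0.0512) or long-term nontarget replicate 1 (0.0596), and in DESeq2 (0.0559).

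ABCC4 (MRP4), a pump for urate and cyclic nucleotides, rose over long culture with and without knockdown. It stood at 57, 51.9 and 67.9 CPM in short-term nontarget, 61.9, 58.8 and 63.5 CPM in short-term knockdown, 96.5, 82.7 and 80.7 CPM in long-term nontarget and 96.3, 84.8 and 75 CPM in long-term knockdown libraries. All 6 long-term libraries lay above all 6 short-term libraries. The rise was 1.47-fold without knockdown (0.56 ± 0.12 (SE), adjusted p = 0.00827), lost without short-term nontarget replicate 1 (adjusted p = 0.0512) or 2 (0.063). With knockdown it was 1.39-fold (0.48 ± 0.12 (SE), adjusted p = 0.00748), lost without long-term knockdown replicate 1 (0.0583). Neither knockdown effect passed the test (adjusted p = 0.839 and 0.929).

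ABCG2 (BCRP), the apical urate and xenobiotic pump, fell over long culture in both kinds of cells. It stood at 3.14, 3.8 and 8.33 CPM in short-term nontarget, 2.91, 1.46 and 2.65 CPM in short-term knockdown, 1.61, 1.39 and 2.33 CPM in long-term nontarget and 0.924, 1.03 and 0.17 CPM in long-term knockdown libraries. Each long-term group lay below its short-term group, and short-term nontarget replicate 3 was far above the other 2. The fall was 2.79-fold without knockdown (−1.48 ± 0.42 (SE), adjusted p = 0.0358), lost without short-term nontarget replicate 3 (log2 fold change −0.94, adjusted p = 0.246) or long-term nontarget replicate 1 (0.105), 2 (0.129) or 3 (0.0503). With knockdown it was 3.11-fold (−1.64 ± 0.54 (SE), adjusted p = 0.0337), lost without short-term knockdown replicate 1 (0.125) or 3 (0.0693) or long-term knockdown replicate 1 (0.060) or 3 (0.0898).

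Of the membrane peptidases, DPP4 had the largest fall of the 24 genes after long-term knockdown, and GGT1 and MME rose after short-term and long-term knockdown. ENPEP was higher after long-term knockdown too, with the limit that it passed the filter on low counts only through those libraries. ANPEP (aminopeptidase N), an abundant brush border enzyme in the kidney, had only 3 counts, 1 each in short-term nontarget replicate 3 (0.157 CPM) and short-term knockdown replicates 1 (0.127 CPM) and 3 (0.177 CPM), and none in the other 9 libraries.

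DPP4 (dipeptidyl peptidase 4, CD26), which removes N-terminal dipeptides from peptide hormones, is on chromosome 2 at chr2:161992241-162074542 (minus strand). It stood at 106, 118 and 97.4 CPM in short-term nontarget, 139.9, 149 and 89.9 CPM in short-term knockdown, 115, 102 and 113 CPM in long-term nontarget and 27.2, 26.4 and 24.4 CPM in long-term knockdown libraries. All 3 long-term knockdown libraries lay below the other 9, of which the lowest was short-term knockdown replicate 3. Long-term knockdown lowered DPP4 4.23-fold (−2.08 ± 0.16 (SE), adjusted p = 3.58e-08), short-term knockdown gave 0.24 ± 0.14 (SE), adjusted p = 0.354, and the effects differed by −2.32 ± 0.21 (SE), adjusted p = 9.96e-07. The fall over long culture of knockdown cells was 4.85-fold (−2.28 ± 0.16 (SE), adjusted p = 1.21e-08), while nontarget cells changed by 0.04 ± 0.14 (SE), adjusted p = 0.932. These falls and the difference held in every alternative, among them each fit without 1 library.

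The 40 genes nearest to DPP4 had a median log2 fold change of 0.06 after long-term knockdown, 4 higher and 4 lower. Over long culture of knockdown cells their median was −0.22, 1 higher and 12 lower. For the difference between the effects it was −0.29, 1 higher and 6 lower. The part of the region in the falls of DPP4 was not tested. A gene on the other strand that overlaps its exons, AC008063.1, had 82 counts in all against 7753 for DPP4. The promoter of DPP4, printed above, is the richest in G, C and CpG of the 4 shown.

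MME (neprilysin, CD10), which cleaves natriuretic and other peptides, is on chromosome 3 at chr3:155024124-155183729 (plus strand). Its levels were 53.4, 53.5 and 53.1 CPM in short-term nontarget, 72.2, 85.2 and 65.3 CPM in short-term knockdown, 39.5, 34.5 and 40.2 CPM in long-term nontarget and 89.6, 88.9 and 79 CPM in long-term knockdown libraries. Both knockdown groups lay above both nontarget groups without overlap. The rise was 1.39-fold short-term (0.48 ± 0.11 (SE), adjusted p = 0.0107) and 2.25-fold long-term (1.17 ± 0.12 (SE), adjusted p = 6.38e-07), and the effects differed by 0.69 ± 0.16 (SE), adjusted p = 0.00715. The short-term call was lost without short-term knockdown replicate 2 (log2 fold change 0.37, adjusted p = 0.0702).

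MME also fell over long culture of nontarget cells (−0.48 ± 0.12 (SE), adjusted p = 0.0149), a call lost without short-term nontarget replicate 1 (adjusted p = 0.0592) or 2 (0.054) or long-term nontarget replicate 2 (0.0729). Over the same time knockdown cells changed by 0.21 ± 0.11 (SE), adjusted p = 0.185. Of the 40 genes nearest to MME, 19 were higher and 4 lower after long-term knockdown, with a median of 0.36, and the part of the region in the rise of MME was not tested.

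GGT1 (gamma-glutamyltransferase 1), which starts the breakdown of glutathione at the cell surface, rose with knockdown at both times. It stood at 46.5, 41.9 and 37.5 CPM in short-term nontarget, 57.9, 56.9 and 65.5 CPM in short-term knockdown, 27.9, 35 and 46.1 CPM in long-term nontarget and 58.2, 60.7 and 77.5 CPM in long-term knockdown libraries. All 6 knockdown libraries lay above all 6 nontarget libraries. Long-term knockdown raised it 1.8-fold (0.85 ± 0.16 (SE), adjusted p = 6.03e-04), a call that held without any single library. The short-term rise of 1.43-fold (0.51 ± 0.16 (SE), adjusted p = 0.0483) was lost without any 1 of the 6 libraries (adjusted p 0.0721 to 0.181). GGT1 belongs to a family with near-identical copies and its exons overlap those of SNRPD3 on the same strand, which had 13115 counts and changed by 0.15 short-term (adjusted p = 0.465) and 0.18 long-term (0.237), so that the split of its reads is uncertain.

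ENPEP (aminopeptidase A), which cleaves angiotensin II, was the rarest of the tested genes per length. It stood at 0.547, 1.21 and 0.314 CPM in short-term nontarget, 1.39, 1.02 and 1.59 CPM in short-term knockdown, 0, 0.155 and 0.129 CPM in long-term nontarget and 5.08, 2.05 and 2.04 CPM in long-term knockdown libraries. The long-term nontarget libraries held 2 counts in all and the long-term knockdown libraries 70, a ratio of counts per total of 35.5 with a 95% exact interval for counting error of 9.46 to 299. The fitted log2 fold change was 4.85 ± 0.72 (SE), adjusted p = 5.65e-05, and long-term knockdown replicate 1 was far above the other 2. Without that library the log2 fold change was 4.22.

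Short-term knockdown gave 0.92 ± 0.58 (SE), adjusted p = 0.381 for ENPEP, and the effects differed by 3.93 ± 1.06 (SE), adjusted p = 0.0185, which was 3.29 without long-term knockdown replicate 1, a call lost without short-term nontarget replicate 2 (log2 difference 3.29, adjusted p = 0.103) or long-term nontarget replicate 1 (0.0516). The long-term knockdown call held without any single library. ENPEP also rose over long culture of knockdown cells (1.25 ± 0.44 (SE), adjusted p = 0.0457), but this was lost in DESeq2 (0.154) and without short-term knockdown replicate 1 (0.106), 2 (0.14) or 3 (0.0609) or long-term knockdown replicate 1 (log2 fold change 0.61, adjusted p = 0.413).

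**Figure D4:**
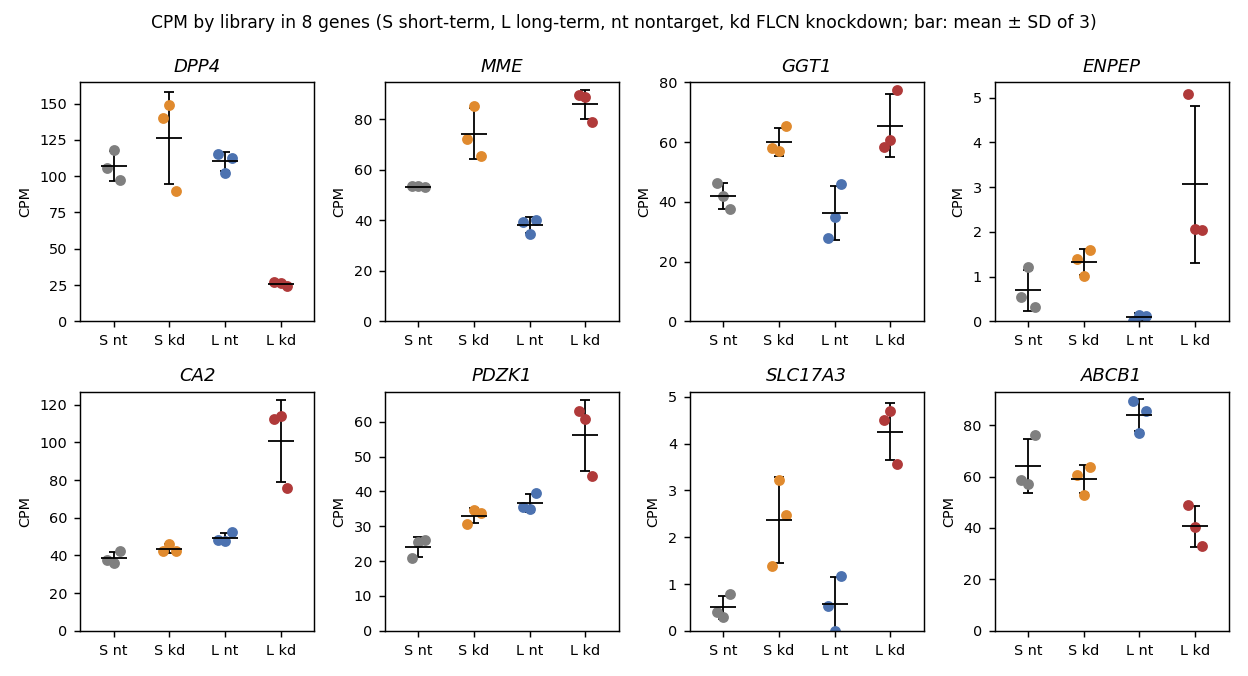
CPM (vertical axis, from 0) of 8 genes in each library of the 4 groups (horizontal axis), with the mean and SD of 3 libraries. The long-term knockdown points of DPP4 and ABCB1 lie below, and those of CA2, PDZK1, SLC17A3 and ENPEP above, the points of every other group.

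The 3 tested metabolic genes all fell over long culture of knockdown cells, where 15.2% of all genes fell, and none passed the test for either knockdown. FBP1 and PCK1, enzymes of gluconeogenesis, had 8 and 1 counts. PCK2, the mitochondrial form of phosphoenolpyruvate carboxykinase, stood at 48, 49.5 and 43.5 CPM in short-term nontarget, 47.8, 48.4 and 59.8 CPM in short-term knockdown, 26.7, 31 and 34.8 CPM in long-term nontarget and 26.8, 32.9 and 37.7 CPM in long-term knockdown libraries. All 6 long-term libraries lay below all 6 short-term libraries. The fall was 1.52-fold without knockdown (−0.61 ± 0.14 (SE), adjusted p = 0.0125) and 1.61-fold with it (−0.68 ± 0.14 (SE), adjusted p = 0.0016). The first was lost without short-term nontarget replicate 1 (adjusted p = 0.0555) or 2 (0.0607) or long-term nontarget replicate 1 (0.0565).

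PCK2 is also on chromosome 14, at chr14:24094053-24110598 (plus strand), and its 40 nearest tested genes had a median log2 fold change of −0.35 without knockdown, 9 lower and 0 higher, and of −0.54 with it, 21 lower and 0 higher. The part of the region in the fall of PCK2 was not tested.

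GATM, which makes the creatine precursor guanidinoacetate, stood at 7.24, 7.75 and 6.44 CPM in short-term nontarget, 7.97, 8.92 and 7.08 CPM in short-term knockdown, 4.82, 5.11 and 2.85 CPM in long-term nontarget and 4.28, 3.67 and 3.05 CPM in long-term knockdown libraries. All 6 long-term libraries lay below all 6 short-term ones. With knockdown it fell 2.15-fold over long culture (−1.11 ± 0.23 (SE), adjusted p = 0.00172), a call held without any single library, and without knockdown the change was −0.76 ± 0.23 (SE), adjusted p = 0.055. Its nearest genes had a median of 0.13.

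MIOX (myo-inositol oxygenase), an enzyme made almost only in the proximal tubule, stood at 7.93, 11.4 and 8.48 CPM in short-term nontarget, 14.8, 13.6 and 11.3 CPM in short-term knockdown, 8.31, 6.97 and 13.7 CPM in long-term nontarget and 7.51, 6.6 and 8.48 CPM in long-term knockdown libraries. Long culture lowered it in knockdown cells 1.77-fold (−0.83 ± 0.23 (SE), adjusted p = 0.0133), a call lost without short-term knockdown replicate 1 (adjusted p = 0.060) or long-term knockdown replicate 2 (0.0537). The short-term knockdown libraries were high and overlapped short-term nontarget replicate 2 and long-term nontarget replicate 3. In nontarget cells the change was 0.07 ± 0.23 (SE), adjusted p = 0.921, and the 2 changes differed by −0.90 ± 0.33 (SE), adjusted p = 0.0813.

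**Figure D5:**
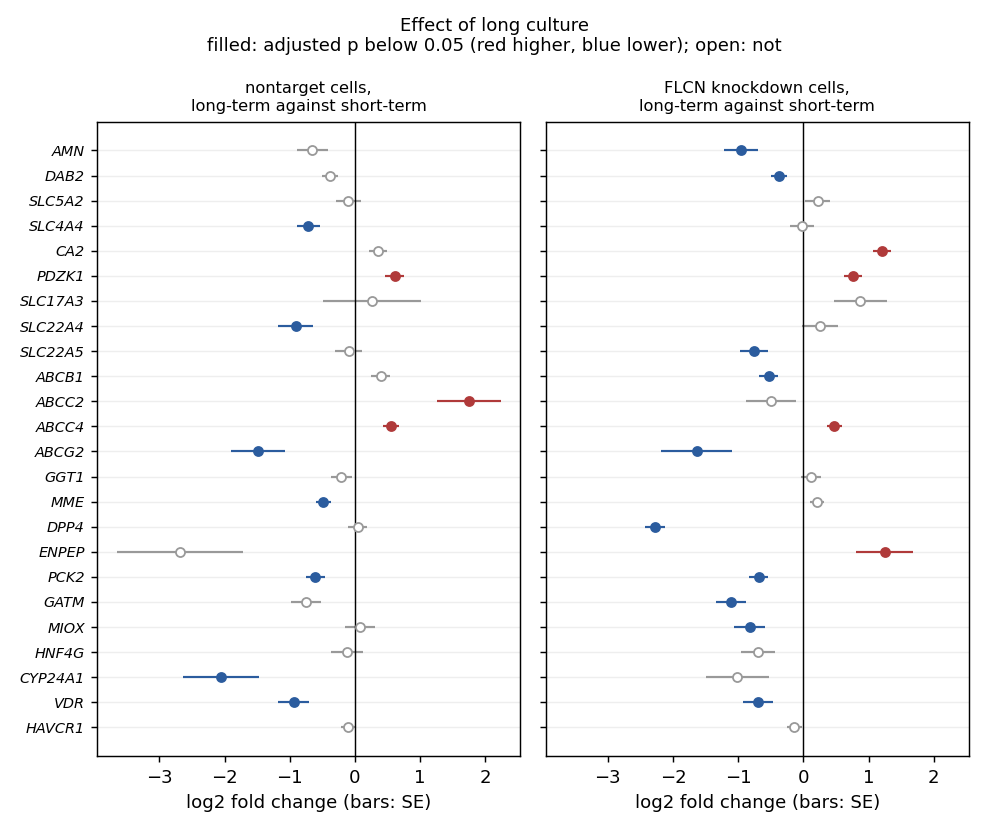
Log2 fold change of long-term against short-term cells (horizontal axis, bars SE) for the 24 tested genes (vertical axis, in order of role) without knockdown (left) and with FLCN knockdown (right), filled where the adjusted p was below 0.05. PDZK1 and ABCC4 are filled on the right of 0 and ABCG2, PCK2 and VDR on the left of 0 in both panels.

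Of the nuclear factors and vitamin D genes, HNF4A had no count while its paralog HNF4G was present. HNF4G stood at 4.37, 4.56 and 6.13 CPM in short-term nontarget, 4.68, 4.09 and 5.13 CPM in short-term knockdown, 6.03, 3.56 and 4.14 CPM in long-term nontarget and 2.89, 2.64 and 3.05 CPM in long-term knockdown libraries. The long-term knockdown libraries were the lowest of the 12, and the change missed the threshold (−0.68 ± 0.26 (SE), adjusted p = 0.0562). VDR, the vitamin D receptor, stood at 15.2, 12.1 and 17.3 CPM in short-term nontarget, 15.1, 14.3 and 19.997 CPM in short-term knockdown, 5.09, 7.43 and 10.6 CPM in long-term nontarget and 9.82, 8.51 and 12 CPM in long-term knockdown libraries. All 6 long-term libraries lay below all 6 short-term libraries.

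VDR fell over long culture 1.92-fold without knockdown (−0.94 ± 0.23 (SE), adjusted p = 0.0182), lost without short-term nontarget replicate 1 (adjusted p = 0.0682) or 3 (0.0859) or long-term nontarget replicate 1 (0.0807) or 2 (0.0701). With knockdown it fell 1.62-fold (−0.70 ± 0.23 (SE), adjusted p = 0.0298), lost without short-term knockdown replicate 3 (0.109) or long-term knockdown replicate 1 (0.0821) or 2 (0.111).

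CYP24A1, the vitamin D 24-hydroxylase and a target of VDR, stood at 2.46, 5.01 and 10.1 CPM in short-term nontarget, 5.19, 4.97 and 13.4 CPM in short-term knockdown, 0.804, 0.774 and 2.46 CPM in long-term nontarget and 3.93, 3.37 and 4.07 CPM in long-term knockdown libraries. Replicate 3 was the highest in each group, as it was for VDR. Long culture of nontarget cells lowered it 4.14-fold (−2.05 ± 0.58 (SE), adjusted p = 0.0439), a call lost without short-term nontarget replicate 2 (adjusted p = 0.0747) or 3 (log2 fold change −1.41, adjusted p = 0.211) or long-term nontarget replicate 1 (0.137) or 2 (0.135), and with a log2 fold change of −2.84 without long-term nontarget replicate 3. Long-term knockdown gave 1.45 ± 0.61 (SE), adjusted p = 0.0922 with groups that did not overlap. Its adjusted p was 0.0382 in DESeq2, 0.00623 without a filter on low counts and 0.0182 with only the 2 groups compared, and it missed the threshold in 5 of the 6 fits without 1 library (up to 0.237). CYP27B1, which makes active vitamin D, was at 0.155 to 0.906 CPM.

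The injury and progenitor markers consisted of 1 abundant gene and 2 near 0. HAVCR1 stood at 135, 138 and 165 CPM in short-term nontarget, 164, 208 and 166 CPM in short-term knockdown, 144, 142 and 123 CPM in long-term nontarget and 163, 174 and 151 CPM in long-term knockdown libraries. The long-term knockdown libraries lay above the long-term nontarget libraries, but the change missed the threshold (0.26 ± 0.12 (SE), adjusted p = 0.112), as did the short-term change (0.30 ± 0.12 (SE), adjusted p = 0.128). Over long culture it changed by −0.10 ± 0.12 (SE), adjusted p = 0.729 without and −0.14 ± 0.12 (SE), adjusted p = 0.42 with knockdown. VCAM1 had 2 counts and PROM1 8, none of them in a long-term knockdown library.

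Of a list of 70 other proximal tubule genes, 50 had a count and 31 were tested. Short-term knockdown changed 13 of the 31, 10 higher and 3 lower (background over all genes 5.62% and 4.71%), with FOLR1, the folate receptor, from 2.44 ± 0.588 to 16 ± 2.54 CPM (adjusted p = 6.91e-07) and the amino acid exchanger SLC7A7 from 8.12 ± 0.715 to 17.9 ± 2.78 CPM (adjusted p = 9.44e-04). Long-term knockdown changed 15, 5 higher and 10 lower (13.7% and 15.8%), with the cadherin CDH6 from 244 ± 45.2 to 1618 ± 180.2 CPM (adjusted p = 1.80e-07) and the arginine pathway enzyme ASS1 from 41.5 ± 6.92 to 12.6 ± 1.87 CPM (adjusted p = 2.79e-07). Long culture changed 5 without knockdown, 3 higher and 2 lower (3.17% and 4.38%), and 16 with knockdown, 4 higher and 12 lower (11.5% and 15.2%), with CDH6 from 67.7 ± 18 to 244 ± 45.2 CPM (adjusted p = 6.04e-05) and from 136 ± 39.95 to 1618 ± 180.2 CPM (adjusted p = 1.60e-08). The knockdown effect differed between times in 10 of the 31 (13.4%). SLC7A7 moved the other way in long-term cells, from 9.79 ± 2.8 to 4.93 ± 0.384 CPM (adjusted p = 0.00214).

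Of 23 other tubule injury genes, all had a count and 20 were tested. Short-term knockdown raised 3, among them CD24 from 115 ± 17.9 to 280.02 ± 32.3 CPM (adjusted p = 2.00e-05), and lowered 1, the actin-binding TPM1, from 1851 ± 76.2 to 1456 ± 127 CPM (adjusted p = 0.0299) (background 5.62% and 4.71%). Long-term knockdown raised 6 and lowered 6 (13.7% and 15.8%), with the chemokine CXCL8 from 24.4 ± 2.48 to 94.6 ± 20.3 CPM (adjusted p = 1.15e-04), the adhesion receptor CD44 from 216 ± 16.6 to 342 ± 22 CPM (adjusted p = 1.42e-04) and the secreted chaperone CLU from 20.7 ± 1.09 to 7.23 ± 0.425 CPM (adjusted p = 3.82e-07). Long culture without knockdown raised 5 and lowered 4 (3.17% and 4.38%), with the keratin KRT19 from 32.8 ± 5.67 to 5.07 ± 1.4 CPM (adjusted p = 4.69e-07), and with knockdown it raised 2 and lowered 7 (11.5% and 15.2%), with KRT19 from 32.6 ± 1.21 to 4.19 ± 1.66 CPM (adjusted p = 3.07e-08). CXCL8 fell over long culture without knockdown, from 76.5 ± 31.2 to 24.4 ± 2.48 CPM (adjusted p = 0.00239), and its change with knockdown missed the threshold (0.151). The knockdown effect differed between times in 10 of the 20 (13.4%). The called injury genes thus moved in both directions, while HAVCR1 passed no test.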

How the data were processed

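RNA of 12 HK2 libraries was analysed. According to the study's methods and the labels, the authors prepared TruSeq RNA v2 libraries, used STAR on GRCh38, obtained read counts from featureCounts and compared groups in DESeq2; versions, annotation release and strand setting are not given in the sources used here. The series table and the per-library files were deposited as a raw count per gene and differed in 0 values. The authors' normalized values, with the unit score, served only to check that they are counts divided by a factor per library (99.9% within 1). All columns had a sample.

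IDs were matched without version to GENCODE release 29 (55661 of 58288 with the same version, 2364 with another, 263 not matched), and coordinates (GRCh38) are printed for genes of the same version. With R 4.3.3 and edgeR 4.0.16, filterByExpr kept 13959 of 26652 genes with a count. TMM factors, estimateDisp and the robust quasi-likelihood fit (prior count 0.125) held 12 libraries and a term per group. Two-sided p-values were adjusted over all genes tested (Benjamini-Hochberg), and a change is called at an adjusted p below 0.05. Each SE was derived as the size of the log2 fold change over the square root of the F statistic of the quasi-likelihood test. CPM use TMM library sizes, and totals were 5825779 to 8991051 counts. Replicates differed by more than counting error (chi-square per degree of freedom 2.15 to 13.0; biological coefficient of variation 12.0%). The fit was tested on simulated data.

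The genes and lists were chosen with earlier results of these data known. Named with every library's value are genes called in a comparison and 11 set ones (LRP2, CUBN, AQP1, SLC34A1, SLC5A2, HNF4A, ANPEP, GGT1, MME, DPP4, HAVCR1), others by range; from the further lists, genes among the 2 largest rises or falls of a comparison with at least 50 counts on average and no overlap. HNF4G was added after its values were seen. Alternatives were RLE factors, DESeq2 1.42.0, no filter, a mean of at least 10 CPM, a replicate block, only the 2 groups compared, a fold limit and leaving out each library.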

Additional observations from a re-analysis of the deposited data

Results flagged for a closer look

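The effect of FLCN knockdown differed between long-term and short-term cells in 6 genes by the interaction term of the edgeR fit. As long-term minus short-term log2 fold change, the difference was 0.855 for CA2, −0.92 for ABCB1, −2.25 for ABCC2, 0.69 for MME, −2.32 for DPP4 and 3.93 for ENPEP. MME rose at both times and more in long-term cells. For CA2, ABCB1, DPP4 and ENPEP only the long-term effect passed the test, and for ABCC2 only the short-term effect. ENPEP passed the filter on low counts only through the long-term knockdown libraries, where it is high. ABCC2 passed it only through the short-term knockdown and long-term nontarget libraries, where it is high. Both thus had to differ between groups to be tested. The differences for CA2, ABCB1, MME and DPP4 were called in every fit without 1 library, whereas that of ABCC2 was lost without any of 5 libraries and in DESeq2, and that of ENPEP without either of 2. The clone behind each library is not stated, so that a difference between times and a difference between clones cannot be told apart.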

How the results depend on the processing

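Of the 42 changes called in a gene and comparison, none reversed direction, 19 kept their call in every refit in which the gene was tested, the fold limit aside, and 23 lost it in at least 1 fit without 1 library. DESeq2 called 4, 9, 8, 13 and 5 genes for short-term knockdown, long-term knockdown, long culture without and with knockdown and the difference between times, and RLE factors left the counts at 4, 8, 10, 14 and 6. Without a filter the short-term count was 7. With a mean of at least 10 CPM, which leaves 13 of the 24 genes, it was 1, and the culture counts were 6 and 8. For DESeq2, RLE factors and these filters the share of all genes called is not given, so that the counts cannot be set against a background. With the fold limit the 5 counts were 2, 3, 3, 5 and 3. Without 1 library they were 0 to 4, 8 to 10, 3 to 6, 8 to 12 and 4 to 7, the lowest being 0 without short-term knockdown replicate 2. In the same order, 6.17% to 8.84%, 23.2% to 29.5%, 4.1% to 6.39%, 19.9% to 27.2% and 10.3% to 16.1% of all genes were called.

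With the replicate number as a block the counts were 8, 13, 14, 16 and 9, and AMN, SLC5A2, SLC22A5, HNF4G and CYP24A1 also passed the test for long-term knockdown (adjusted p 0.00185 to 0.0443). The share of all genes called in that fit is not given, so that these counts are no result about the proximal tubule genes. This replicate block rests on numbers that samples only share: deviations of same-numbered libraries correlated at −0.10 to 0.47, above 0.1 in 10 of 18 pairs. At 5825779 to 8991051 counts per library, a gene without counts in a group may stand at up to 0.138 to 0.148 CPM, and the 20 genes under the filter on low counts were not tested in fits that use it. Clone, region of the chromosome and reads shared between overlapping genes were not tested as sources of a change.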
